A study of Rattus norvegicus with 48 samples.

Results

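Per2 (ENSRNOG00000020254), Per3 (ENSRNOG00000018413), Cry1 (ENSRNOG00000006622) and Cry2 (ENSRNOG00000007478) encode period and cryptochrome proteins, the repressors of the circadian clock. They were chosen by their Ensembl identifiers, as 4 of the 32883 genes in the deposited count table, and all 4 passed the filter on low counts in every comparison. In the hearts of methamphetamine-treated females at day 11, Per2, Per3 and Cry2 were higher than in saline-treated females, whereas Cry1 did not pass the test. In each group, the library labelled replicate 5 went against the sex of its label. With all libraries, no effect of methamphetamine on a member passed in males. Without replicate 5, Per2, Per3 and Cry2 were higher with methamphetamine in males at day 11, where 6.54% of genes passed. Treatment there cannot be told apart from the series of rat numbers. Also without replicate 5, Cry1 was lower and Per3 higher in males after abstinence, where 0.103% of genes passed. Between time points, Cry1 was lower after abstinence in females, though only marginally so with saline, and higher in saline-treated males. Per3 also differed between time points in saline-treated females, again marginally. Time point cannot be told apart from sequencing pool and age, nor in saline-treated males from the series of rat numbers.

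In the clock of each cell, the proteins CLOCK and BMAL1 (encoded by Arntl) activate the Per and Cry genes through E-box sequences. PER and CRY proteins then accumulate, enter the nucleus and shut off CLOCK and BMAL1, so that the transcripts rise and fall once a day. Cry1 is also repressed by the REV-ERB receptors (Nr1d1 and Nr1d2), and its transcript is known to peak later in the day than those of Per2, Per3 and Cry2. The heart holds such a clock, which times genes of metabolism and contraction.

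Female and male Sprague Dawley rats, 8 weeks of age at treatment, were injected under the skin once a day for 10 days with methamphetamine, a psychostimulant, at 5 mg/kg/day or with saline. Hearts were collected at day 11, the day after the last injection, or after 30 days of abstinence without injections, and RNA of the left ventricle was sequenced as 1 library per rat. This makes 8 groups, F or M, Sal or Meth, with or without abstinence, of 6 libraries each, apart from 5 in saline-treated females at day 11, whose replicate 3 was not analysed here. All rats were of a single outbred stock with no genetic change, were anesthetized with pentobarbital and heparin, and had their hearts flushed with Krebs solution. All hearts were taken in the morning, at about the hour of injection, so each rat gives a single time of day. The libraries of day 11 formed 1 sequencing pool and those after abstinence the other, and the latter rats were older, so time point, pool and age cannot be told apart. The rat numbers form a lower and an upper series. All 6 saline-treated males at day 11, 3 of the 6 methamphetamine-treated females after abstinence and 1 of the 6 saline-treated females after abstinence were of the lower series, and all others of the upper. Number series therefore cannot be told apart from treatment in males at day 11, nor from time point in saline-treated males, and the differences of effects that use these males share this.

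Total counts ranged from 6661581 to 11314050 per library. Of the defining markers of ventricular cells in the list used, 0 of 6 could be given an identifier, so the tissue label could not be checked with them. Sex labels were checked with 4 genes at a median of at least 20 counts in male and at most 1 in female libraries, and with 2 genes at least 10-fold higher in females. In the 19 libraries labelled female with a replicate number other than 5, the summed level of the male genes was 0 to 2.52% of the median of male libraries, and in the 20 such libraries labelled male at 70.9 to 116%. In the 4 female libraries labelled replicate 5 they stood at 85.8 to 115%, and in the 4 male ones at 7.31 to 12.1%. Thus 8 of 47 libraries, 1 per group and all labelled replicate 5, went against the sex of their label. They were kept as labelled in each test, and values without them stand beside the main results.

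The promoters of the members are shown because CLOCK and BMAL1 are known to activate Per and Cry genes through E-box sequences. They are the 250 bases before and 50 after the start of the gene in the RefSeq annotation of GRCr8, a later build than the rn6 genome of the count table, and 3 of the 4 members had an entry (Cry1 had none). Per2 lies on the minus strand with this promoter at chr9:99496944-99497243, Per3 on the minus strand at chr5:166777751-166778050, and Cry2 on the minus strand at chr3:98860388-98860687. Capitals mark matches, on either strand, to CACGTG (E-box), CACGTT (E-box-like), TTANGTAA (the core of a D-box, to which Dbp, Tef and Nfil3 bind) and AGGTCA (the half-site of nuclear receptors).
Per2: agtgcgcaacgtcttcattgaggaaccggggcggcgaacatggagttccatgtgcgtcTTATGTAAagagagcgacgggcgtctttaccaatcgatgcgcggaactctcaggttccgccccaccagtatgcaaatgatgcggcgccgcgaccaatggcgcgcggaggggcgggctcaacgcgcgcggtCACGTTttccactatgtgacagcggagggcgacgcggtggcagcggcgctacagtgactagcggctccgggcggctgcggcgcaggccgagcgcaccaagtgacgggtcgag
Per3: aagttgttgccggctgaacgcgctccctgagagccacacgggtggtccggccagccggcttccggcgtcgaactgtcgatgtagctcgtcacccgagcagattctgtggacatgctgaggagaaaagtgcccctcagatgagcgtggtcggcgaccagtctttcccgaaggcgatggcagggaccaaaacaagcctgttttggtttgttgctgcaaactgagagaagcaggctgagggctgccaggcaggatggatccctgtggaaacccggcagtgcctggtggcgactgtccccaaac
Cry2: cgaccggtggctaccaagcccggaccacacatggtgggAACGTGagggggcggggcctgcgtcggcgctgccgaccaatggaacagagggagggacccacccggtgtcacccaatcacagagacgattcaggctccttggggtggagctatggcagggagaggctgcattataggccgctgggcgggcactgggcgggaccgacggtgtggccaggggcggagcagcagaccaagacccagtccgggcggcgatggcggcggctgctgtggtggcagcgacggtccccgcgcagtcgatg
Per2 held 1 E-box-like match that began 62 bases before the start, and 1 D-box core that began 192 bases before it. Cry2 held 1 E-box-like match, on the opposite strand. Neither a CACGTG nor an AGGTCA stood in these 3 windows, and Per3 held none of the motifs. Among all 33469 promoters of the same length, 6.42% held CACGTG, 4.83% CACGTT, 2.24% TTANGTAA and 16.2% AGGTCA. These matches are letters in a window, and they were not set against binding data.

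A level here is in CPM, counts per 1000000 counts of the library, and since gene lengths of the annotation were not at hand, no level is compared between genes. Over the 47 libraries, Per2 ranged from 10.4 to 142 CPM, Per3 from 7.09 to 152 CPM, Cry1 from 5.55 to 26.2 CPM and Cry2 from 38.7 to 87.7 CPM. The highest library was therefore 13.6-fold above the lowest for Per2, 21.5-fold for Per3, 4.72-fold for Cry1 and 2.27-fold for Cry2. Expressed as log2 CPM (prior count 2), the SD over all libraries was 1.07 for Per2, 1.21 for Per3, 0.58 for Cry1 and 0.31 for Cry2. The Per genes thus had the wide ranges and Cry2 the narrow one. In these samples of whole tissue, fewer cells of a type and less RNA per cell cannot be told apart.

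**Figure D1:**
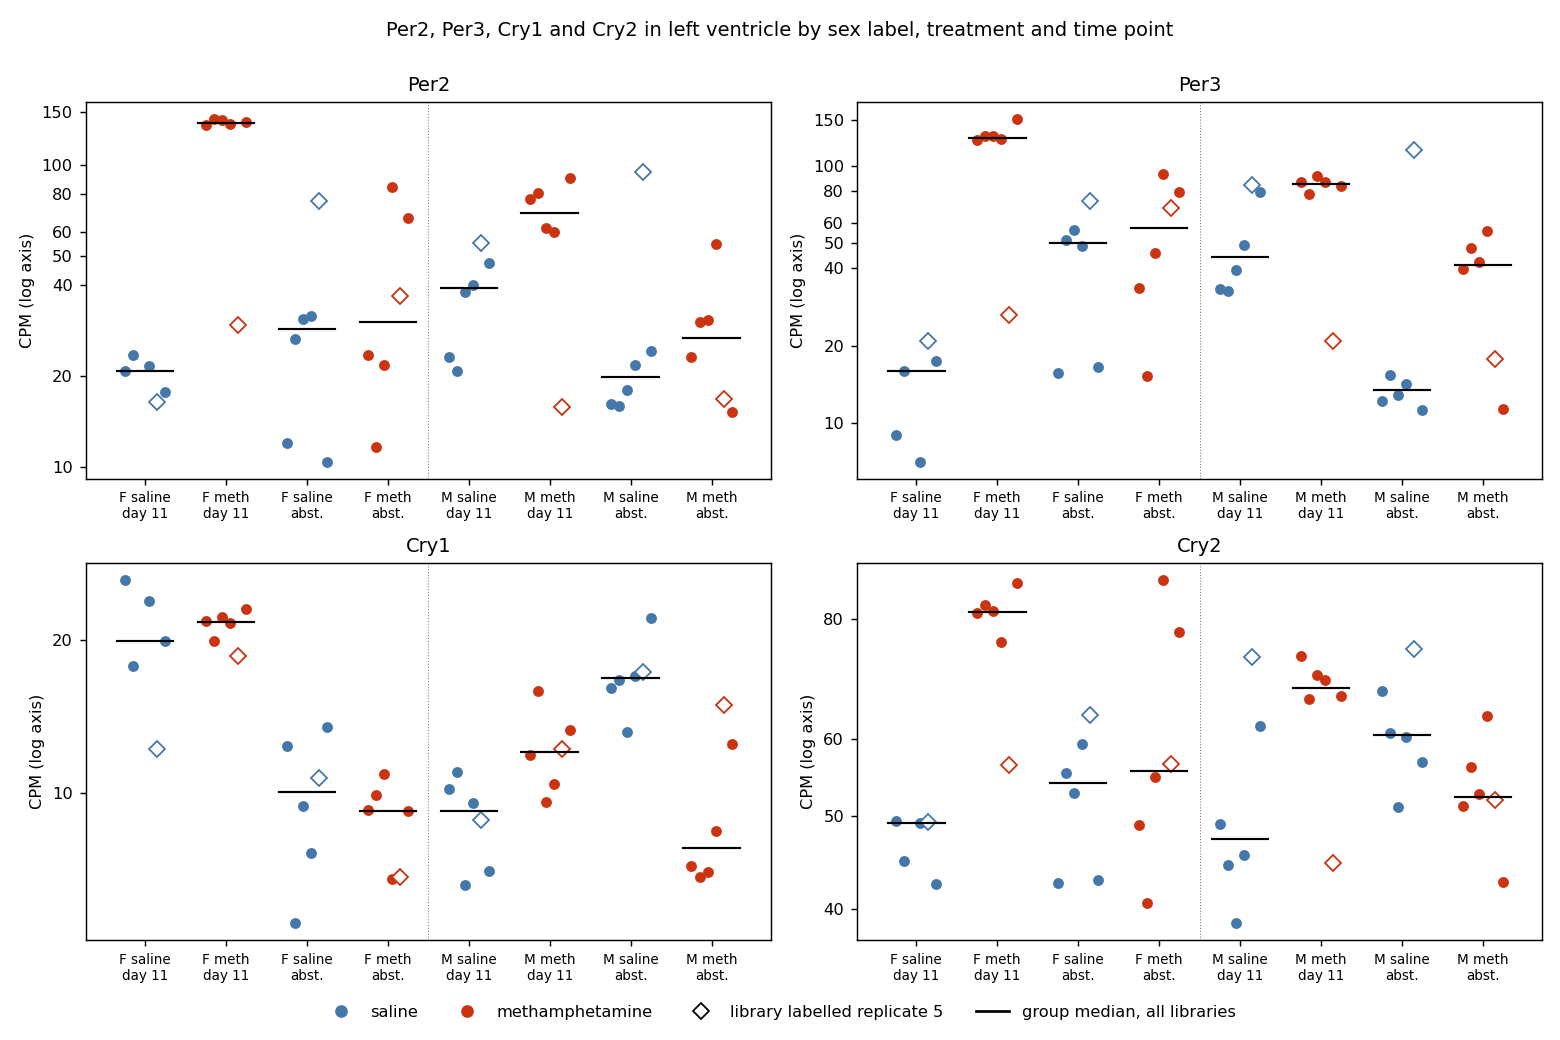
CPM of Per2, Per3, Cry1 and Cry2 on log axes in each of 47 libraries, by group (F or M label, saline or methamphetamine, day 11 or abstinence). Filled circles are libraries, open diamonds those labelled replicate 5, and bars the group medians. In methamphetamine-treated females at day 11, Per2 stood at 136 to 142 CPM in 5 libraries and at 29.4 CPM in replicate 5.

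Each sex at each time point was tested for an effect of methamphetamine over saline with the quasi-likelihood test of edgeR across all genes, where a called gene is one whose Benjamini-Hochberg adjusted p was below 0.1. In females at day 11, 3 of the 4 members were called, all higher with methamphetamine, beside 4.18% of 13890 genes tested. Without the libraries labelled replicate 5, the same 3 were called beside 9.43% of genes. For Per2, the scaffold of the repressor complex, saline-treated females had 20.7, 23.4, 21.5, 16.4 and 17.7 CPM in replicates 1, 2, 4, 5 and 6. Methamphetamine-treated females ranged from 29.4 to 142 CPM, with a median of 138 CPM. Every methamphetamine library was above every saline library, and 5 of the 6 stood within 136 to 142 CPM. Per2 was 6.04-fold higher with methamphetamine, a log2 fold change of 2.60 (SE 0.30), with an edgeR adjusted p of 0.00108. Without replicate 5 the log2 fold change was 2.75 (SE 0.07).

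Per3, a period gene on which the rhythm depends less than on Per2, had 9.02, 16.0, 7.09, 20.8 and 17.4 CPM in the same saline-treated females. With methamphetamine it ranged from 26.2 to 152 CPM, with a median of 128 CPM. Again the groups did not overlap, and the lowest methamphetamine library was replicate 5, while the others stood at 126 CPM or above. Per3 was higher by 3.05 on the log2 scale (SE 0.37), or 8.26-fold, with an edgeR adjusted p of 0.00108. It was 3.45 (SE 0.18) without replicate 5.

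Cry2, which encodes a cryptochrome that binds CLOCK and BMAL1 directly, had 49.4, 44.9, 49.1, 49.2 and 42.5 CPM in the saline-treated females. With methamphetamine it ranged from 56.5 to 87.1 CPM, with a median of 81.4 CPM. The groups did not overlap. Cry2 was 1.65-fold higher, a log2 fold change of 0.72 (SE 0.09), with an edgeR adjusted p of 0.00108, and without replicate 5 the log2 fold change was 0.82 (SE 0.06). Its change was thus smaller on the log2 scale than those of the Per genes, and it was called in all 20 alternatives tried, as were Per2 and Per3.

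Cry1, the other cryptochrome, had 26.2, 17.8, 23.9, 12.2 and 19.9 CPM in the saline-treated females. With methamphetamine it ranged from 18.6 to 23 CPM, with a median of 21.7 CPM, inside the range of the saline group. The log2 fold change was 0.08 (SE 0.14), with an edgeR adjusted p of 0.884, and it was -0.02 (SE 0.10) without replicate 5. Cry1 was called in 0 of 20 alternatives in this comparison, over which its log2 fold change ran from -0.04 to 0.19.

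Of the other clock genes, only those that the study's own tables name could be matched, 12 of the 39 on the lists used. Those tables list genes that the study found changed in these same hearts, so a call was favoured in advance. The calls, directions and medians of these genes, here and in the comparisons below, are therefore not independent evidence. All 12 were called in females at day 11. The activators fell, with log2 fold changes of -2.52 (SE 0.72) for Arntl, -2.14 (SE 0.39) for Npas2, which can stand in for CLOCK, and -0.80 (SE 0.17) for Clock. The nuclear receptors rose, by 0.99 (SE 0.23) for Nr1d1 and 1.46 (SE 0.26) for Nr1d2 on the log2 scale. Among the D-box factors, Dbp rose by 3.23 (SE 0.41) and Tef by 1.80 (SE 0.23), while Nfil3, which represses the sites they activate, changed by -0.55 (SE 0.14). The PER-deubiquitinating enzyme Usp2 rose by 1.08 (SE 0.18), Cipc, which inhibits CLOCK, by 0.26 (SE 0.07), and the glucocorticoid-induced genes Zbtb16 by 1.96 (SE 0.36) and Tsc22d3 by 0.71 (SE 0.19). The median log2 fold change was -2.14 over the 3 activators and 1.80 over the 3 D-box factors, against -0.00043 over all genes tested. No gene of the complex partners could be matched.

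Myl4, a myosin light chain of atrial muscle and the only atrial marker of 4 that could be matched, ranged from 2.16 to 92.1 CPM in saline-treated females at day 11 and from 1.53 to 5.67 CPM with methamphetamine, and it was called (log2 fold change -3.04, SE 0.69). Ptprc, the only leukocyte marker of 4 that could be matched, ranged from 19.3 to 29.8 CPM and from 18.0 to 23.7 CPM. Both have a symbol here because the study lists them as changed, Myl4 in females at day 11 and Ptprc in females after abstinence. The call of Myl4 was thus favoured in advance. No marker of fibroblasts, endothelium, blood or adipocytes could be matched. The part of atrial tissue in the changes of the members was not tested.

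In males at day 11, 0 of the 4 members and 0 of 13753 genes (0%) were called by edgeR, although 2020 genes had an unadjusted p under 0.05. DESeq2 called 171 genes and limma voom with sample weights 1166. With replicate 5 left out of both groups, 6.54% of 13887 genes were called, and 3 of the 4 members were among them. Per2 ranged from 20.7 to 55.2 CPM in saline-treated males, with a median of 39.0 CPM, and from 15.8 to 90.3 CPM with methamphetamine, with a median of 69.4 CPM. The highest saline library and the lowest methamphetamine library were both replicate 5, and without them the groups did not overlap, at 20.7 to 47.2 CPM against 59.9 to 90.3 CPM. The log2 fold change was 0.78 (SE 0.32, edgeR adjusted p = 0.302) with all libraries and 1.14 (SE 0.20, edgeR adjusted p = 0.0216) without replicate 5.

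Per3 ranged from 32.7 to 84.3 CPM in saline-treated males, with a median of 44.1 CPM, and from 20.8 to 90.9 CPM with methamphetamine, with a median of 84.8 CPM. Replicates 5 and 6 of the saline group reached the level of the methamphetamine group, so the groups overlapped also without replicate 5. Its log2 fold change was 0.49 (SE 0.30, edgeR adjusted p = 0.428), and 0.88 (SE 0.18, edgeR adjusted p = 0.0344) without replicate 5. Cry2 ranged from 38.7 to 73.0 CPM with saline, with a median of 47.3 CPM, and from 44.7 to 73.2 CPM with methamphetamine, with a median of 67.9 CPM. Without replicate 5 its ranges were apart, at 38.7 to 61.9 CPM against 66.1 to 73.2 CPM, and the log2 fold change went from 0.32 (SE 0.14, edgeR adjusted p = 0.324) to 0.53 (SE 0.09, edgeR adjusted p = 0.0204).

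Cry1 ranged from 6.60 to 11.0 CPM in saline-treated males, with a median of 9.21 CPM, and from 9.61 to 15.9 CPM with methamphetamine, with a median of 12.0 CPM. The groups overlapped, and replicate 5 was inside the range of the others in each. Its log2 fold change of 0.46 (SE 0.15, edgeR adjusted p = 0.274) was 0.46 (SE 0.17, edgeR adjusted p = 0.137) without replicate 5. With only the saline library of replicate 5 left out, 11.5% of 13838 genes were called by edgeR. Among them were 3 members, since Per2, Cry1 and Cry2 were called, at edgeR adjusted p of 0.0999, 0.093 and 0.0474, while Per3 was not. Of the 12 other clock genes, 0 were called with all libraries, and without replicate 5 Arntl (log2 fold change -1.76, SE 0.28), Npas2 (-1.79, SE 0.22), Tef (0.91, SE 0.10), Usp2 (0.78, SE 0.13) and Cipc (0.27, SE 0.07) were.

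The difference of the effect between the sexes at day 11 was tested as an interaction, which called 0.119% of 14278 genes. Per3 was the only member called, with an effect in females larger than in males by 2.55 on the log2 scale (SE 0.52, edgeR adjusted p = 0.0798). Its call was lost in 19 of 23 fits that left out 1 library, at an edgeR adjusted p of up to 0.183, and it held only without replicate 5 of either female group or replicate 2 or 5 of the saline-treated males. Over the 23 fits the difference ran from 2.36 to 2.75. Per2 differed by 1.80 (SE 0.47, edgeR adjusted p = 0.260), Cry2 by 0.39 (SE 0.18) and Cry1 by -0.39 (SE 0.21), and these were not called. The saline-treated males in this test were those of the lower number series. Without replicate 5, which called 0.795% of genes, Per2 (1.60, SE 0.24, edgeR adjusted p = 0.00127) was called as well as Per3 (2.57, SE 0.29). After abstinence, the interaction called 0 of 13972 genes (0%) by edgeR with 632 at an unadjusted p under 0.05, 2 by DESeq2 and 1 by voom, and 0 of 14020 (0%) without replicate 5.

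**Figure D2:**
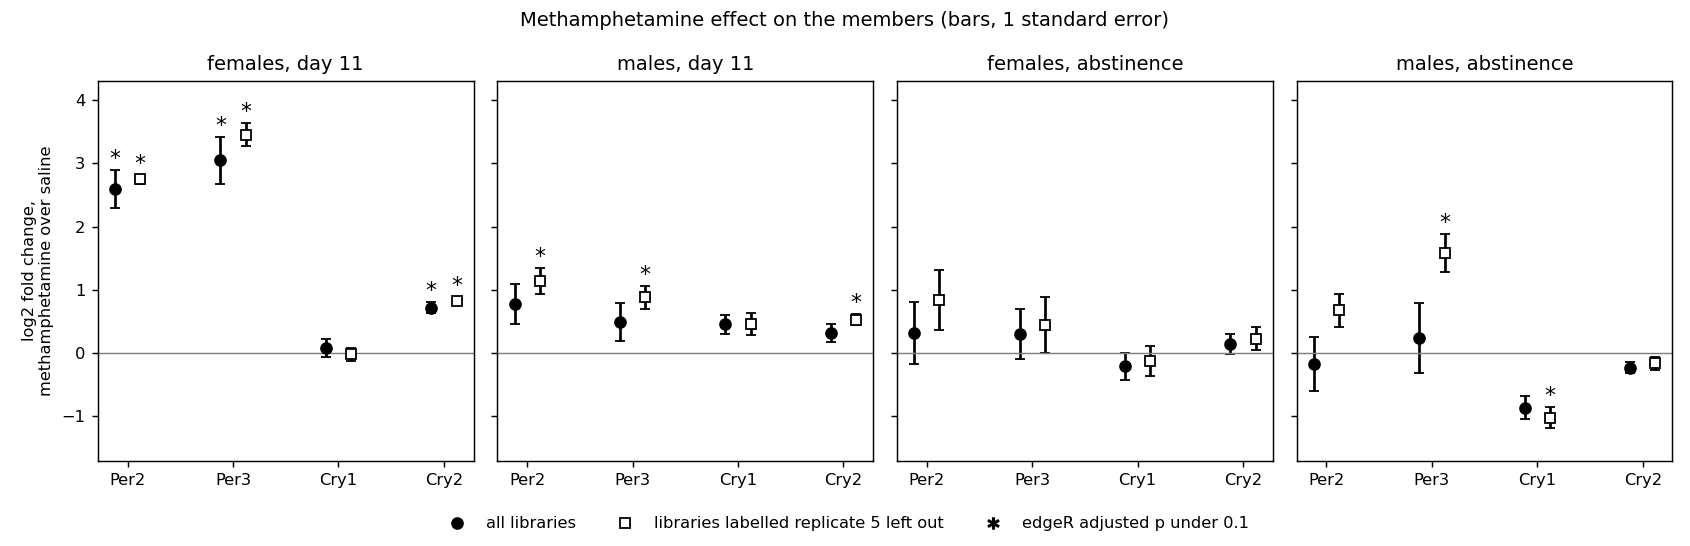
Log2 fold change of each member, methamphetamine over saline, in the 4 comparisons, with bars of 1 standard error. Filled circles use all libraries, open squares leave out those labelled replicate 5, and asterisks mark an edgeR adjusted p under 0.1. Per2 and Per3 stand highest in females at day 11, at 2.60 and 3.05, and Cry1 lowest in males after abstinence, at -0.86.

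After abstinence in females, 0 of 13545 genes (0%) were called by edgeR with all libraries, and 0 of 13610 (0%) without replicate 5. At an unadjusted p under 0.05 there were 523 genes, DESeq2 called 4 and voom 0. Within the methamphetamine group, the levels of the Per genes split by the series of rat numbers, over 3 libraries each and without a test. The lowest upper-series library of both genes was replicate 5, which went against its sex label. Per2 ranged from 10.4 to 76.0 CPM in saline-treated females, with a median of 28.6 CPM, and from 11.6 to 84.3 CPM in methamphetamine-treated females, with a median of 30.2 CPM. Per3 ranged from 15.7 to 72.7 CPM, with a median of 50.1 CPM, and from 15.3 to 93.2 CPM, with a median of 57.2 CPM. In the methamphetamine group the 3 lower-series libraries stood at 11.6 to 23.5 CPM for Per2 and 15.3 to 45.9 CPM for Per3, below the 3 of the upper series at 36.9 to 84.3 CPM and 68.4 to 93.2 CPM. The 5 upper-series libraries of the saline group stood at 10.4 to 76.0 CPM and 16.5 to 72.7 CPM, and the lower-series library at 12.0 and 15.7 CPM. Cry2 ranged from 42.6 to 63.6 CPM against 40.6 to 87.7 CPM, and Cry1 from 5.55 to 13.5 CPM against 6.77 to 10.9 CPM. In the methamphetamine group Cry2 split by series too, at 40.6 to 54.8 CPM against 56.6 to 87.7 CPM, and Cry1 was higher in the lower series, at 9.24 to 10.9 CPM against 6.77 to 9.20 CPM. The log2 fold changes were 0.32 (SE 0.49) for Per2, 0.30 (SE 0.40) for Per3, 0.15 (SE 0.16) for Cry2 and -0.21 (SE 0.21) for Cry1, all with an edgeR adjusted p of 0.997. With the number series as a block, these became 0.72 (SE 0.38) for Per2, 0.71 (SE 0.31) for Per3, 0.29 (SE 0.13) for Cry2 and -0.37 (SE 0.20) for Cry1, with an edgeR adjusted p of 0.883, and 0 of 13545 genes were called. Unadjusted edgeR p-values in that fit were 0.0378 for Per3, 0.0450 for Cry2, 0.0812 for Per2 and 0.0854 for Cry1. Without replicate 5 and with no block, the log2 fold changes were 0.84 (SE 0.48), 0.44 (SE 0.44), 0.23 (SE 0.18) and -0.12 (SE 0.24) in the same order of genes as in the block fit. No member was called in any of 22 alternatives here. In this methamphetamine group, Myl4 ranged from 2.13 to 35.5 CPM and Ptprc from 19.4 to 76.4 CPM, against 1.93 to 4.46 CPM and 19.1 to 24.1 CPM with saline, and their part was not tested.

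In males after abstinence, edgeR called 0 of 13606 genes (0%), with 652 at an unadjusted p under 0.05, and DESeq2 called 18 and voom 8. Without replicate 5 it called 14 of 13621 genes (0.103%), and 2 of the 14 were Cry1 and Per3. The study lists Cry1 as changed in this comparison, so its call was favoured in advance. Cry1 ranged from 13.2 to 22.1 CPM in saline-treated males, with a median of 16.8 CPM, and from 6.85 to 14.9 CPM with methamphetamine, with a median of 7.79 CPM. In the methamphetamine group 4 libraries lay at 6.85 to 8.41 CPM, and only replicates 5 and 6 stood higher, at 14.9 and 12.5 CPM. Without replicate 5 the groups did not overlap. The log2 fold change was -0.86 (SE 0.18, edgeR adjusted p = 0.381) and -1.02 (SE 0.17, edgeR adjusted p = 0.0485) without replicate 5. Cry1 was called in 5 of 21 alternatives, among which the adjusted p ran from 0.0136 with DESeq2 to 0.764.

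Per3 was not called with all libraries. It ranged from 11.2 to 115 CPM in saline-treated males, with a median of 13.5 CPM, and from 11.3 to 56.0 CPM with methamphetamine, with a median of 41.0 CPM. The saline value of 115 CPM was replicate 5, and the other 5 stood at 11.2 to 15.4 CPM, below 5 of the 6 methamphetamine libraries. The log2 fold change was 0.24 (SE 0.56) with all libraries, and 1.58 (SE 0.30, edgeR adjusted p = 0.0987) without replicate 5, the only 1 of 21 alternatives that called it. Without the saline library of replicate 5 alone it was 1.44 at an edgeR adjusted p of 0.328. Per2 ranged from 15.9 to 94.5 CPM with saline, with a median of 19.8 CPM, and from 15.2 to 54.7 CPM with methamphetamine, with a median of 26.6 CPM. It changed sign, from -0.17 (SE 0.43) to 0.68 (SE 0.26, edgeR adjusted p = 0.715), when replicate 5 was left out. Cry2 ranged from 51.1 to 74.4 CPM and from 42.7 to 63.5 CPM, with a log2 fold change of -0.23 (SE 0.09, edgeR adjusted p = 0.999), and -0.16 (SE 0.10) without replicate 5.

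Of the 12 other clock genes, 0 were called in males after abstinence with all libraries, and 4 were without replicate 5. These were Nr1d1 (log2 fold change 1.86, SE 0.23), Nr1d2 (1.21, SE 0.17) and Dbp (2.38, SE 0.36), which were higher, and Nfil3 (-1.01, SE 0.11), which was lower. Myl4 ranged from 0.888 to 3.98 CPM with saline and from 0.753 to 13.9 CPM with methamphetamine, where the highest was replicate 5, and Ptprc from 21.2 to 36.4 CPM and from 17.5 to 28.3 CPM.

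Whether a pair of members changed by different amounts was tested on the difference of their log2 CPM within a library, which does not depend on the size of the library, by two-sided exact permutation tests adjusted over 8 tests. None of the 8 was called with all libraries. Cry1 minus Cry2 averaged -1.27 ± 0.43 (SD, n = 5) in saline-treated and -1.85 ± 0.15 (SD, n = 6) in methamphetamine-treated females at day 11. The difference of -0.58 had an exact permutation p of 0.0216 and an adjusted p of 0.121. Without replicate 5 it was -0.81, with an exact permutation p of 0.00794, the smallest possible, and an adjusted p of 0.0635, and the 4 saline and 5 methamphetamine libraries did not overlap, at -1.32 to -0.91 against -2.04 to -1.80.

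In males after abstinence, Cry1 minus Cry2 averaged -1.85 ± 0.27 (SD, n = 6) with saline and -2.52 ± 0.58 (SD, n = 6) with methamphetamine, a difference of -0.67 (exact permutation p = 0.0455, adjusted p = 0.121). In the latter group 4 libraries stood at -3.0 to -2.80, and replicates 5 and 6 at -1.78 and -1.76. Without replicate 5 the difference was -0.86 (exact permutation p = 0.0397, adjusted p = 0.0794). In males at day 11 it was 0.12 (exact permutation p = 0.615) and in females after abstinence -0.29 (exact permutation p = 0.422). Within the upper number series of the latter it was -0.66, with an exact permutation p of 0.179 over 5 and 3 libraries, where the smallest possible is 0.0179. Leaving out replicate 6 of the methamphetamine-treated males alone also gave a call, at -0.82. Cry1 was thus lower relative to Cry2 with methamphetamine in females at day 11 and in males after abstinence, but was called so only with libraries left out.

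Per2 minus Per3 averaged 0.60 ± 0.79 (SD, n = 5) in saline-treated and 0.08 ± 0.11 (SD, n = 6) in methamphetamine-treated females at day 11, a difference of -0.51 (exact permutation p = 0.173, adjusted p = 0.284). In males after abstinence it averaged 0.39 ± 0.47 (SD, n = 6) and -0.27 ± 0.45 (SD, n = 6), a difference of -0.66 (exact permutation p = 0.0390, adjusted p = 0.121). Without replicate 5 these were -0.76 and -0.83, each with an adjusted p of 0.0794, so that Per2 was lower relative to Per3 with methamphetamine in both. The differences of 0.23 in males at day 11 and 0.03 in females after abstinence were not called with or without replicate 5, and the latter was 0.18 within the upper number series (exact permutation p = 0.554).

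**Figure D3:**
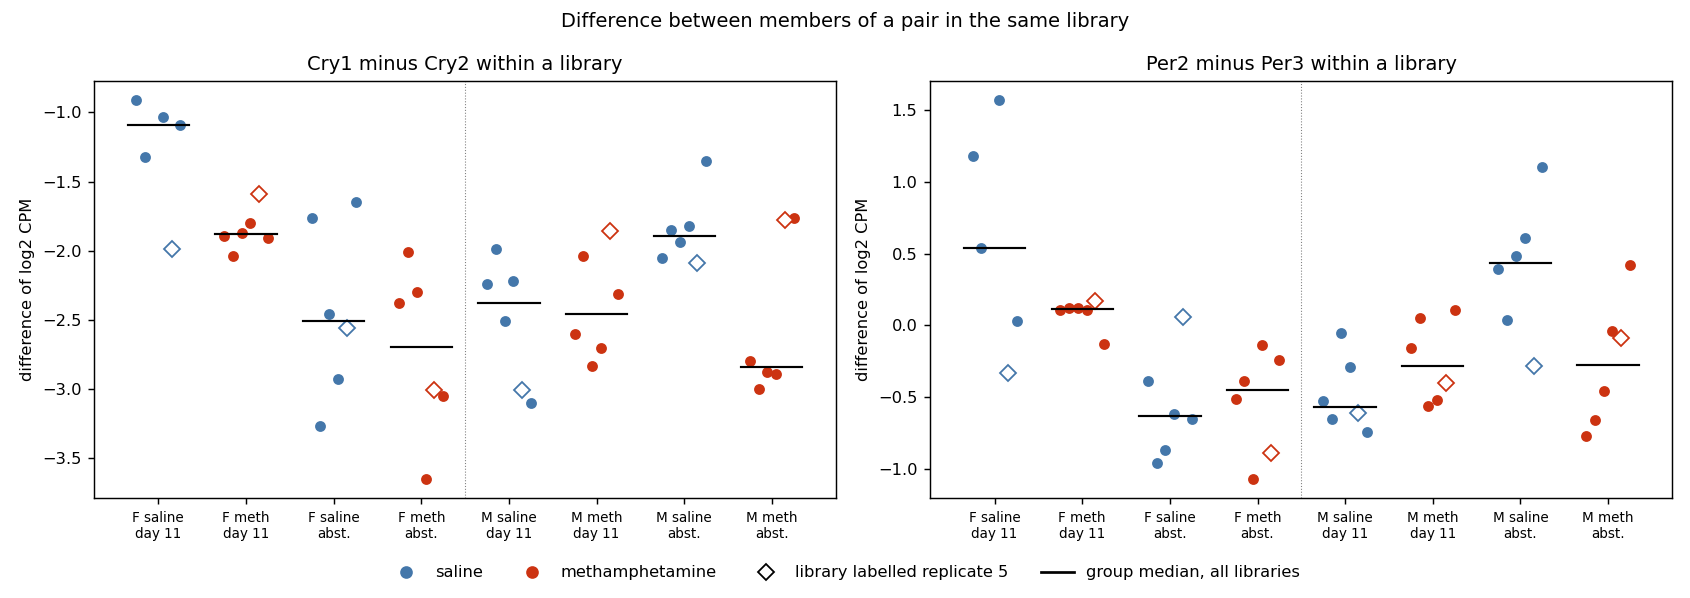
Cry1 minus Cry2 (left) and Per2 minus Per3 (right) on the log2 CPM scale within each library, by group, with medians as bars and libraries labelled replicate 5 as open diamonds. In methamphetamine-treated males after abstinence, 4 libraries stand at -3.0 to -2.80 for Cry1 minus Cry2, and replicates 5 and 6 at -1.78 and -1.76.

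The groups of the same treatment were next compared between time points. In saline-treated females, 1.2% of 13647 genes were called, and the members called were Per3, which was higher after abstinence by 1.71 on the log2 scale (SE 0.38, edgeR adjusted p = 0.0623), and Cry1, which was lower, at -0.95 (SE 0.22, edgeR adjusted p = 0.0645). Without replicate 5, with 2.39% of genes called, the values were 1.69 (SE 0.40) and -1.10 (SE 0.22), and both were called. The calls were marginal, since leaving out 1 library ended that of Per3 in 5 and that of Cry1 in 7 of 11 fits. For Per3 these were replicate 2 after abstinence and replicates 1, 2, 4 and 6 at day 11, with log2 fold changes of 1.53 to 1.80. For Cry1 they were the same libraries with replicates 3 and 4 after abstinence, at -0.99 to -0.81. Per2 differed by 0.72 (SE 0.38) and Cry2 by 0.24 (SE 0.11), and neither was called.

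In methamphetamine-treated females, 1.11% of 13720 genes were called, and Cry1 was the only member, lower after abstinence by a log2 fold change of -1.25 (SE 0.12, edgeR adjusted p = 0.000486). Its 6 libraries at day 11, at 18.6 to 23 CPM, were all above its 6 libraries after abstinence, at 6.77 to 10.9 CPM, and it was called in all 21 alternatives. The 3 libraries of the lower and the 3 of the upper number series after abstinence were all below day 11, where all were of the upper series. Without replicate 5, with 3.53% of genes called, Per2 (-1.74, SE 0.39, edgeR adjusted p = 0.0433) and Per3 (-1.31, SE 0.32, edgeR adjusted p = 0.0674) were called as well. Cry2 stood at -0.33 (SE 0.15) with all libraries, and was called neither way.

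In saline-treated males, where time point cannot be told apart from number series as well as from pool and age, Cry1 was higher after abstinence. It was 1 of 12 genes called of 13681 (0.0877%), with a difference of 0.97 on the log2 scale (SE 0.14, edgeR adjusted p = 0.0152), with 6.60 to 11.0 CPM at day 11 and 13.2 to 22.1 CPM after abstinence. The groups did not overlap, and Cry1 was called in all 21 alternatives. Per3 stood at -0.78 (SE 0.54) with all libraries, and without replicate 5, with 1.47% of genes called, at -1.79 (SE 0.21, edgeR adjusted p = 0.00225), where 32.7 to 78.8 CPM at day 11 did not overlap with 11.2 to 15.4 CPM after abstinence. Per2, at -0.20 (SE 0.41), and Cry2, at 0.28 (SE 0.13), were not called with or without replicate 5.

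In methamphetamine-treated males, 0 of the 4 members were called beside 0.212% of 13689 genes, with log2 fold changes of -1.15 (SE 0.34) for Per2, -1.03 (SE 0.34) for Per3, -0.35 (SE 0.18) for Cry1 and -0.27 (SE 0.11) for Cry2. Without replicate 5, with 0.993% of genes called, Per2 (-1.23, SE 0.23, edgeR adjusted p = 0.0328) and Per3 (-1.08, SE 0.25, edgeR adjusted p = 0.0722) were called as lower after abstinence.

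The change of the methamphetamine effect between time points was tested as an interaction. In males it called 0.149% of 14064 genes, and Cry1 was the only member, with an effect at day 11 above that after abstinence by 1.32 (SE 0.24, edgeR adjusted p = 0.0482). It was called in 28 of 33 alternatives, and the call was lost without replicate 1, 2 or 4 of the methamphetamine group after abstinence, replicate 6 of the saline group after abstinence or replicate 1 of the methamphetamine group at day 11, at 1.24 to 1.33. This test too uses the saline-treated males of the lower number series. Without replicate 5, with 0.618% of genes called, Cry1 differed by 1.48 (SE 0.25) and Cry2, by 0.68 (SE 0.14, edgeR adjusted p = 0.0361), was called too. In females the interaction called 0.233% of 14144 genes, and Per3 was the only member, at 2.75 (SE 0.60, edgeR adjusted p = 0.0921), a call lost in 16 of 23 fits without 1 library, over which the difference ran from 2.53 to 2.96. It held only without replicate 2, 4 or 6 of the methamphetamine group after abstinence, replicate 1 or 6 of the saline group after abstinence, or replicate 5 of either group at day 11. Without replicate 5, with 1.23% of genes called, Per3 was at 3.0 (SE 0.57, edgeR adjusted p = 0.0135), and Per2, at 2.28 (SE 0.63) with all libraries, was called neither way.

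Ordered by their medians over all libraries, the groups ran for Per2 from saline-treated males after abstinence (19.8 CPM) to methamphetamine-treated females at day 11 (138 CPM), and for Per3 between the same groups, from 13.5 to 128 CPM. For Cry2 they ran from saline-treated males at day 11 (47.3 CPM) to methamphetamine-treated females at day 11 (81.4 CPM). For Cry1 the lowest group was methamphetamine-treated males after abstinence (7.79 CPM), and the highest were both female groups at day 11 (19.9 CPM with saline and 21.7 CPM with methamphetamine). With all libraries, every neighbouring pair of groups overlapped in each gene. Without replicate 5, the highest group stood apart from its neighbour for Per2, Per3 and Cry2, at 139, 130 and 81.6 CPM against 77.1, 86.2 and 69.1 CPM in methamphetamine-treated males at day 11, whereas no neighbours were apart for Cry1. Methamphetamine-treated males at day 11 were then also apart from the group before them for Per2 and Per3, as were saline-treated males at day 11 for Per3. Here and above, the share of all genes whose groups did not overlap was not computed. Such gaps are thus a description of small groups and not a result particular to the members.

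Within groups, the members were compared library by library as deviations from the group mean, over 12 relations with permutation p-values adjusted over the 12. After abstinence, over 24 libraries, Per2 and Per3 rose and fell together (Pearson's r = 0.91, Spearman's rho = 0.93). So did Per2 and Cry2 (r = 0.87, rho = 0.83) and Per3 and Cry2 (r = 0.78, rho = 0.82). The permutation p of each r and rho was 1e-05, the smallest that 100000 draws can give, and the adjusted p was 4e-05. Cry1 ran against them, with r = -0.53 and rho = -0.58 to Per3 (permutation p = 0.00883 and 0.0073, adjusted p = 0.0151 and 0.0171), r = -0.40 and rho = -0.51 to Cry2 (permutation p = 0.0594 and 0.0194, adjusted p = 0.0891 and 0.0259) and r = -0.38 and rho = -0.56 to Per2 (permutation p = 0.0802 and 0.0115, adjusted p = 0.107 and 0.0175). Without the 2 libraries farthest from the median of the first gene, r was 0.89, 0.87 and 0.78 among the first 3 pairs, and -0.65, -0.47 and -0.57 for Cry1 with Per3, Cry2 and Per2. Without replicate 5, over 20 libraries, the r values were 0.89, 0.90 and 0.85, and -0.75, -0.56 and -0.58, and all 6 were called. When deviations were taken from the mean of each number series within a group, over 23 libraries, r was 0.89, 0.81 and 0.73 for the first 3 pairs (adjusted permutation p = 0.00012 each). It was then -0.41, -0.22 and -0.21 for Cry1 with Per3, Cry2 and Per2, none of them called (adjusted permutation p = 0.104, 0.511 and 0.511). With replicate 5 left out as well, it was -0.68, -0.49 and -0.48, of which that with Per3 was called (adjusted permutation p = 0.0473, but 0.288 for rho).

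At day 11 the positive relations were called with all libraries but not without replicate 5. Over 23 libraries, r was 0.85 and rho 0.50 for Per2 and Per3 (permutation p = 0.00177 and 0.0117, adjusted p = 0.00425 and 0.0175), r was 0.75 and rho 0.58 for Per2 and Cry2 (permutation p = 0.0028 and 0.00857, adjusted p = 0.0056 and 0.0171), and r was 0.76 and rho 0.81 for Per3 and Cry2 (permutation p = 0.00125 and 0.00015, adjusted p = 0.00375 and 0.00045). Without replicate 5, over 19 libraries, these fell to r of 0.40, 0.18 and 0.17, with adjusted permutation p of 0.273, 0.765 and 0.733, and to rho of 0.28, 0.04 and 0.04. Without the 2 libraries farthest from the median of the first gene they were 0.54, 0.52 and 0.55, with adjusted permutation p of 0.0908, 0.138 and 0.0789, and rho was 0.34, 0.44 and 0.75, with adjusted permutation p of 0.187, 0.177 and 0.00948. Per3 and Cry2 thus kept a called relation by both measures there. Cry1 gave r of 0.03 with Per2, -0.29 with Per3 and -0.03 with Cry2 (permutation p = 0.886, 0.169 and 0.891, rho of 0.13, -0.40 and -0.16). That with Per3 was -0.64 (adjusted permutation p = 0.0262) without replicate 5.

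**Figure D4:**
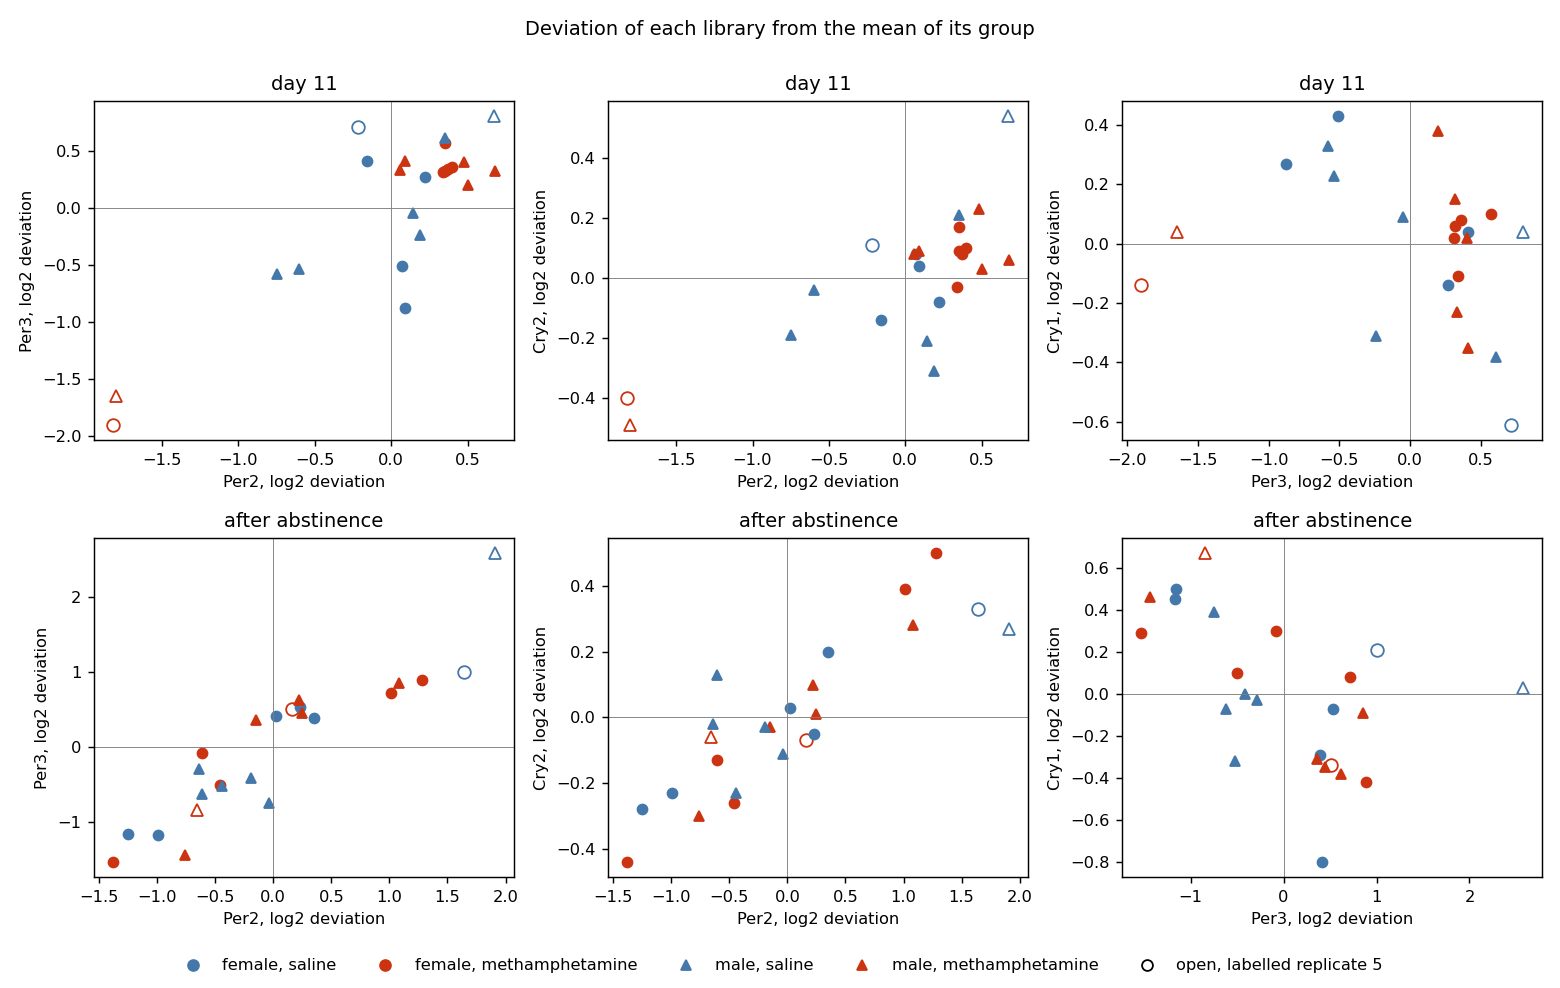
Deviation of each library from the mean of its group, on the log2 CPM scale, for Per3 and Cry2 against Per2 and for Cry1 against Per3, at day 11 (top) and after abstinence (bottom). Circles are female and triangles male labels, blue saline and red methamphetamine, and open symbols are libraries labelled replicate 5. After abstinence Cry2 rises with Per2 (r = 0.87) and Cry1 falls as Per3 rises (r = -0.53, or -0.41 within number series), while at day 11 the open symbols lie farthest out.

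The genes with the pattern most like each member were taken by Pearson's r of log2 CPM over the 39 libraries labelled other than replicate 5, among 14412 genes, as a description over libraries that share groups and depth. The genes closest to Per2 were Tef (0.94), Rhobtb1 (0.93), Dgat2 (0.92), LOC100911766 (0.90) and Ephx1 (0.89), and the most opposed were Arntl (-0.95), Npas2 (-0.94) and Slc41a3 (-0.93). Those closest to Per3 were Dbp (0.95), Nr1d2 (0.94), a gene with no symbol here (0.91), Tef (0.90) and Ephx1 (0.89), and the most opposed were Arntl (-0.92), Medag (-0.91) and Ckap4 (-0.90). Cry2 was nearest to Tef (0.86), to Map2k6, Per2 and Cnksr1 (each 0.81) and to a gene with no symbol here (0.81), and most opposed to Rhoj (-0.83), Col5a3 (-0.81) and a gene with no symbol (-0.80). For Cry1 the 5 nearest genes reached 0.71 to 0.75 and had no symbol here, and of the 3 most opposed, at -0.81 to -0.71, Nr1d1 (-0.72) was the only one with a symbol. Among the members themselves, r was 0.88 for Per2 and Per3, 0.81 for Per2 and Cry2 and 0.70 for Per3 and Cry2. It was 0.11, -0.25 and 0.16 for Cry1 with Per2, Per3 and Cry2.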

How the data were processed

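RNA of rat left ventricle was sequenced by the authors from stranded mRNA libraries. Trimming was done by the authors with Trimmomatic 0.38, alignment to the rn6 genome with HISAT2 2.1.0, and counting per Ensembl gene with GenomicAlignments. They deposited each count without normalization, and beside it a normalized signal. A check showed this signal to be those counts over 1 size factor per library, and it had no other use here. The handling of strand and of multiply aligned reads is not given in the sources used here.

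Libraries were grouped by their labels. Counts were tested with edgeR 4.0.16 in R 4.3.3 (TMM, filterByExpr, quasi-likelihood test, Benjamini-Hochberg adjusted p under 0.1), each comparison on its own libraries. Alternatives were DESeq2 1.42.0, limma 3.58.1 voom, RLE factors, other filters, all 47 libraries in a single fit, an adjusted p under 0.05, the replicate number as a block, the rat number series as a block in females after abstinence, replicate 5 left out, and each library left out in turn. Chosen after the values were seen were relations within number series and pair differences in the upper series only. In simulated counts of 5 comparisons, 79 to 95.5% of 200 genes changed 2-fold were recovered, and 7.35 to 13.7% of calls were false (94.5% and 7.35% in females at day 11, 88% and 11.1% in females after abstinence). With 5 or 6 libraries per group from separate rats, p-values measure the spread between the libraries of a group. In the main tests that spread includes replicate 5, which went against the sex label in each group. Recovery of 2-fold changes with such a library in each group was not tested. In males at day 11, where recovery was 95.5%, edgeR called 0 of 13753 genes with all libraries and 908 of 13887 without replicate 5. The paper states that litters were divided across the groups, but the labels do not give the litter, so it was not modelled.

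The genes described are the 4 members, the lists of clock genes and markers, and for each member the 5 most alike and 3 most opposed genes. The members and lists were chosen with earlier results of these data known. Symbols came from the study's tables, which name 328 genes, and the columns of fold changes and p-values there were not used. Library pairs within a group differed by more than sampling noise (chi-square per degree of freedom of 2.31 to 38.0).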

Additional observations from a re-analysis of the deposited data

Results flagged for a closer look

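In a test for a library that stands apart from its group, run on 48 groups of values of which chance gives about 1 in 20, the 8 CPM values that stood apart were all libraries labelled replicate 5. Per2 was 29.4 CPM in that library of methamphetamine-treated females at day 11, where the others stood at 136 to 142 CPM. It was 76.0 CPM in saline-treated females after abstinence, against 10.4 to 31.5 CPM, and 94.5 CPM in saline-treated males after abstinence, against 15.9 to 24.1 CPM. Per3 was 26.2 CPM in methamphetamine-treated females at day 11, against 126 to 152 CPM, 20.8 CPM in methamphetamine-treated males at day 11, against 77.6 to 90.9 CPM, and 115 CPM in saline-treated males after abstinence, against 11.2 to 15.4 CPM. Cry2 was 56.5 CPM in methamphetamine-treated females at day 11, against 75.7 to 87.1 CPM, and 44.7 CPM in methamphetamine-treated males at day 11, against 66.1 to 73.2 CPM. No Cry1 value stood apart by this test. These are among the libraries whose genes of each sex went against their label, and the part of that in the values was not tested.

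The remaining 2 values that stood apart were both in replicate 6. Cry1 minus Cry2 was -1.35 in saline-treated males after abstinence, against -2.09 to -1.82, and Per2 minus Per3 was -0.13 in methamphetamine-treated females at day 11, against 0.11 to 0.17, on the log2 scale.

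An edgeR interaction of methamphetamine effects was called for Per3 between females and males at day 11 (2.55 on the log2 scale). It was called in 10 of 32 alternatives. That for Per3 between day 11 and abstinence in females (2.75) was called in 14 of 32. That for Cry1 between day 11 and abstinence in males (1.32) was called in 28 of 33. These tests called 0.119%, 0.233% and 0.149% of all genes. Those with males use the saline-treated males at day 11, all of the lower number series.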

How the results depend on the processing

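The calls of Per2, Per3 and Cry2 in females at day 11 held in all alternatives run, as did those of Cry1 between the time points in saline-treated males and in methamphetamine-treated females. Apart from fits without 1 library, the number of members called moved under 27 combinations of comparison and alternative and stayed within 1.5 times under 82. For each change below, the cause was not tested.

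With replicate 5 left out of every group, 3 members were called in males at day 11 beside 6.54% of genes. In males after abstinence 2 were called (0.103% of genes). The difference between the sexes at day 11 called 2 (0.795%), and that between time points in males 2 (0.618%). Between time points, 2 were called in saline-treated males (1.47%), 3 in methamphetamine-treated females (3.53%) and 2 in methamphetamine-treated males (0.993%). The log2 fold change turned to -0.02 for Cry1 in females at day 11 and 0.68 for Per2 in males after abstinence, and the difference for Per3 to -1.15 between the sexes after abstinence and -0.72 between time points in males. Cry1 minus Cry2 became -0.81, -0.08 and -0.86 in females and males at day 11 and in males after abstinence, and Per2 minus Per3 became -0.76 and -0.83 in females at day 11 and males after abstinence. The r at day 11 became 0.40 for Per2 and Per3, -0.28 for Per2 and Cry1, 0.18 for Per2 and Cry2, -0.64 for Per3 and Cry1 and 0.17 for Per3 and Cry2, and after abstinence -0.58 for Per2 and Cry1. Without the 2 libraries farthest from the median, r at day 11 was -0.05 for Per2 and Cry1, 0.52 for Per2 and Cry2, 0.54 for Per2 and Per3, -0.57 for Per3 and Cry1 and 0.13 for Cry1 and Cry2, and after abstinence -0.57 for Per2 and Cry1.

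With voom, 2 members were called in males at day 11 beside 8.48% of genes, 1 in males after abstinence beside 0.0588%, 2 in the difference between time points in males beside 0.768%, 2 between time points in saline-treated males beside 1.57% and 3 in methamphetamine-treated females beside 4.83%. There the sign turned for Cry1 in females at day 11 (-0.04), Per2 in males after abstinence (0.45), and Per3 between the sexes after abstinence (-0.43) and between time points in males (-0.43). DESeq2 called 1 in males after abstinence beside 0.132%, 2 in the difference between time points in females beside 1.2% and 2 in methamphetamine-treated females between time points beside 3.37%, where no low-count filter (1.17%) and the fit of all 47 libraries (4.83%) also called 2. That fit called 0 in the difference between the sexes at day 11 (0.0694%), 2 in that between time points in females (1.46%) and 1 in saline-treated females between time points (1.8%). In females after abstinence it called 130 of 14412 genes and in males at day 11 it called 46, with no member in either. An adjusted p under 0.05 left 0 members in the difference between the sexes at day 11, in that between time points in females and in saline-treated females between time points.

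With deviations from the means of number series, r after abstinence was -0.41 for Per3 and Cry1 and -0.22 for Cry1 and Cry2, and without replicate 5 as well the latter was -0.49. The number series as a block moved the log2 fold changes of all 4 members in females after abstinence by over 1.5 times and called none.

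The labels do not say what a replicate number marks. The correlation of same-numbered libraries was over 0.1 in 2 of 5, 2 of 6, 2 of 6 and 2 of 6 pairs (from -0.418 to 0.309). Pairs with different numbers ran more widely, from -0.506 to 0.503, both in females after abstinence. The replicate 5 pair was over 0.1 in each comparison. It stood at 0.309 in females and 0.248 in males at day 11, and at 0.259 and 0.186 after abstinence. The replicate 5 libraries are those that went against their sex label. With the replicate block, 1 member (Cry1) was called in males after abstinence beside 0.0514% of genes, and 0 in the difference between the sexes at day 11, in that between time points in females and in saline-treated females between time points. Per2 turned to 0.08 in males after abstinence and Per3 to -0.29 between the sexes after abstinence.

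Leaving out 1 library in turn, the number of members called ranged from 0 to 3 in males at day 11. The 3 were called without replicate 5 of the saline group, beside 11.5% of genes, while most other fits there called 0 genes. The range was also 0 to 3 in methamphetamine-treated males between time points. The 3 were called there without replicate 5 at day 11, beside 122 of 13768 genes. It was 0 to 1 in males after abstinence. It was 0 to 2 in the difference between the sexes at day 11 and in both differences between time points. Between time points it was 0 to 2 in saline-treated females, 1 to 2 in saline-treated males and 1 to 3 in methamphetamine-treated females. Log2 fold changes that turned ranged from -0.04 to 0.19 for Cry1 in females at day 11, -0.00 to 0.81 for Per2 in females after abstinence and -0.47 to 0.56 in males after abstinence. The differences that turned ranged from -0.25 to 0.98 for Per2 and -1.15 to 0.27 for Per3 between the sexes after abstinence, and -0.94 to 0.45 for Per3 between time points in males. Cry1 minus Cry2 ranged from -0.76 to -0.49 in females at day 11, and from -0.82 to -0.57 in males after abstinence. Per2 minus Per3 ranged from -0.74 to -0.27 in females at day 11, -0.05 to 0.16 in females after abstinence and -0.79 to -0.51 in males after abstinence.

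Cry1 had 46 to 267 counts per library, the lowest minimum and maximum of the members, which limits the precision of each of its values. The SE of its log2 fold change was still below those of Per2 and Per3 in each comparison of methamphetamine with saline. In females at day 11 it was 0.14, against 0.30 and 0.37.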
